A study of Mus musculus with 10 samples.

Results

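The genes described here encode complement and coagulation proteins: complement components and regulators, clotting factors and their inhibitors. The members were taken from a list of 35 genes, and a gene was used where a probe set with its symbol alone was present on the array. That held for 33 of the 35, out of 18193 genes with such a probe set, and C3 and Cpb2 were not analysed here. All 33 lay above the filter on dim genes, which left 12736 genes for the tests. The 33 members had 47 probe sets. Of the members, 30 are made mainly by hepatocytes, and the 3 genes of C1q are made by macrophages.

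Complement is a cascade of plasma proteins that marks and lyses targets. It starts through C1q on antibodies, through mannose-binding lectins on sugars, or through the alternative pathway with factor B, and it ends in a membrane pore built by C5 to C9. Coagulation is a cascade of proteases that ends when thrombin turns fibrinogen into fibrin, and plasmin dissolves the clot. The liver supplies most of both systems to the plasma, and several of these genes belong to the acute phase response.

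RNA came from the liver of 10 ApoE-/- mice, a strain that lacks apolipoprotein E. Of these, 5 had been given an adenovirus with GFP, a fluorescent protein (controls 11 to 15), and 5 an adenovirus with dominant negative cJun (dn-cJun 16 to 20), a form that blocks the AP-1 subunit cJun. Each mouse was measured on its own Affymetrix mouse genome array, so by the labels both groups share the ApoE-/- background and an adenovirus infection. The labels used here give no age, sex, diet, virus dose, time after infection or share of infected cells.

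Several facts of the whole series bear on the values. Apoe gave a 42.6-fold higher signal in the second group (limma adjusted p = 2.57e-08, n = 5 per group) although all mice carry the ApoE-/- label. The group is therefore called "labelled dn-cJun" below. Jun differed by -0.07 (SE 0.17, limma adjusted p = 0.890). Xist, which silences an X chromosome in female cells, was at 13.71 and 13.63 on the log2 scale in controls 14 and 15 and at 5.90 to 6.72 in the other 8 arrays, while the Y-linked Eif2s3y was at 5.22 and 4.08 in that pair and at 10.58 to 11.13 elsewhere. Values without this pair are therefore given beside the main ones. Control 11 is the array whose extraction entry names Trizol. The defining hepatocyte markers were present in both groups, and none of 11 tested passed. Over all 10 arrays, all 11 were on the higher side in each of the 4 scalings run (median 0.07 after quantile normalization). Of these, 4 had an unadjusted p under 0.05 after quantile normalization. Once controls 14 and 15 were left out, 10 markers stayed on the higher side and 1 was lower (median 0.06). Only 1 marker then kept its unadjusted p below 0.05. The centred mean of the 11 markers was -0.30, -0.24 and -0.24 in controls 11, 14 and 15, and its part in the members' values was not tested. The markers had summed levels from 18.49 to 18.59 (controls) and from 18.55 to 18.69 (labelled dn-cJun), both as log2 of the summed intensity.

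No member passed the threshold of an adjusted p under 0.05, where 0.777% of all genes tested did (0.345% higher and 0.432% lower). All levels below are log2(intensity + 16) after quantile normalization, and all differences are log2 fold changes, labelled dn-cJun minus control, with the standard error of limma and p-values adjusted by Benjamini-Hochberg over the 12736 genes. Of the 33 members, 17 were higher and 16 lower, with a median of 0.01, beside 50.3% higher, 49.7% lower and a median of 0.0015 over all genes. At an unadjusted p under 0.05 there were 5 members, Mbl1, C2 and Fga on the lower side and F5 and C4bp on the higher, beside 14.9% of all genes (7.47% lower and 7.42% higher). The groups did not overlap in 1 member, Mbl1 on the lower side, beside 4.22% of all genes (2.13% lower and 2.1% higher). Both counts take each gene by its brightest probe set. Further probe sets of Masp1, Masp2 and F10 also had an unadjusted p under 0.05, on the higher side. Those of C2 and F5 did not. The 95% intervals of the 33 differences, each taken alone, lay between -0.52, the lower bound of Mbl1, and 0.61, the upper bound of C8b. Because this is whole liver, fewer cells of a type and less RNA per cell cannot be told apart. Counts of higher members depended on the scaling: 24 of 33 were higher with array medians made equal.

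**Figure D1:**
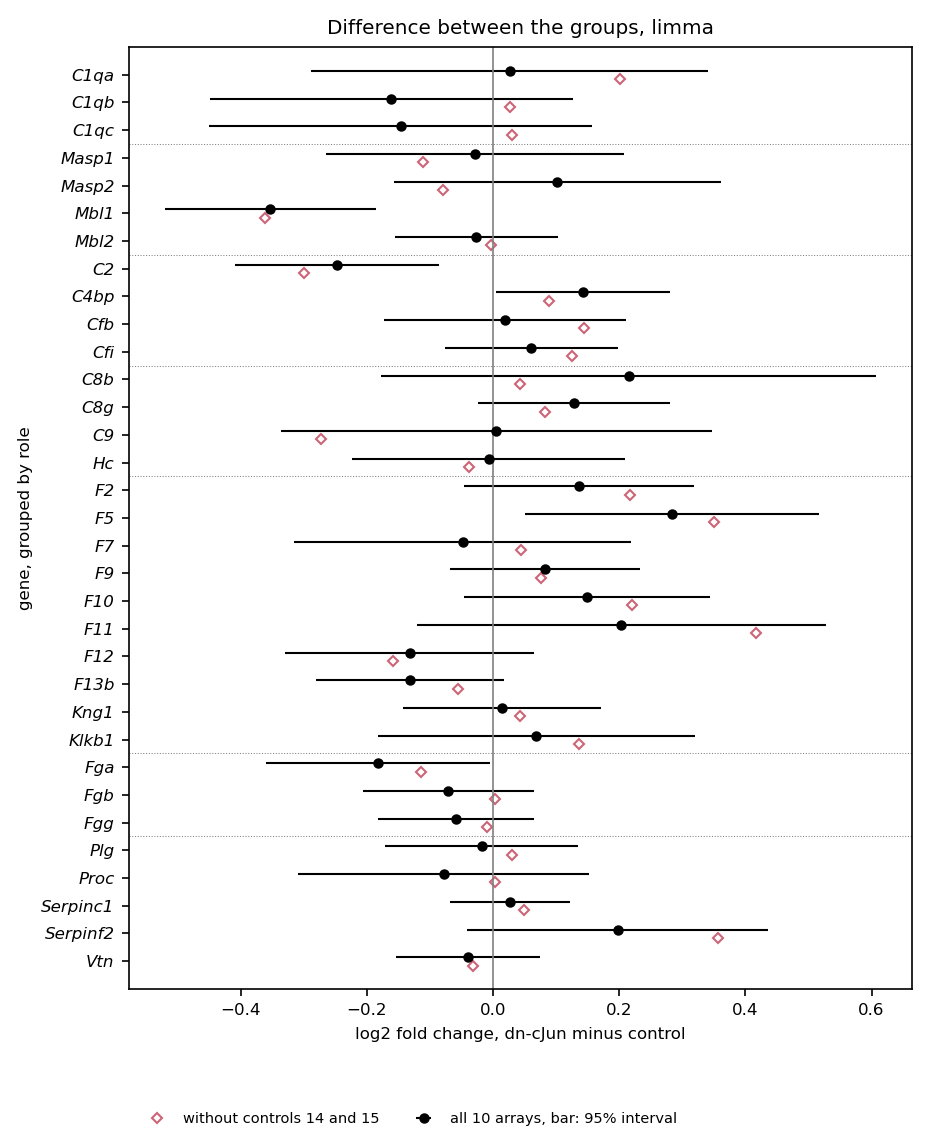
Log2 fold change of each of the 33 members (horizontal axis), labelled dn-cJun minus control, grouped by role from C1q at the top to inhibitors and fibrinolysis at the bottom; black points and bars are limma estimates and 95% intervals over 10 arrays, and open diamonds are the estimates without controls 14 and 15. Mbl1 at -0.35 lies farthest from 0 on the lower side and F5 at 0.28 farthest on the higher side.

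Because cJun acts as part of AP-1, the 250 bases before the start were searched on both strands in the members with a promoter entry. The letters sought were TGANTCA, a loose form of the AP-1 site with any middle base, and GTTAAT, a part of the site of the hepatocyte factor HNF1. RefSeq on GRCm38.p6 gave 26 promoters of 25 members. The AP-1 letters were found in 3 of them (11.5%, beside 6.75% of 32851 promoters of that length) and the HNF1 letters in 7 (26.9%, beside 6.43%). The AP-1 letters read TGACTCA in Fgb and C8g and TGATTCA in F2. These matches describe letters in the window and not binding. The promoters of Fgb, F2 and C8g are printed because they hold the AP-1 letters, and that of Mbl1, which holds neither motif, because Mbl1 had the smallest p of the members. Each runs from 5′ to 3′ on the strand of its gene and ends at the base before the start, with both motifs in capitals.
Fgb, fibrinogen beta chain, chr3:83049864-83050113, minus strand: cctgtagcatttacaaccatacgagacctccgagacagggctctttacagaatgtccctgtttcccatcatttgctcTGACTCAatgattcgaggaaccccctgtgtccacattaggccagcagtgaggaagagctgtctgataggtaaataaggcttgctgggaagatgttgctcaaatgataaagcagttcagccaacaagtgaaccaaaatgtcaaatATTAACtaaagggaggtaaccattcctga
F2, prothrombin, chr2:91636458-91636707, minus strand: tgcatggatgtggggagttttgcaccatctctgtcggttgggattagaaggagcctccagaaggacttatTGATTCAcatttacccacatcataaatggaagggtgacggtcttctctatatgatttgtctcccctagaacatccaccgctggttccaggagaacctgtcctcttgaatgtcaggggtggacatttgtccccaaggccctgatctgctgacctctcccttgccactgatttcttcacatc
C8g, C8 gamma chain, chr2:25500507-25500756, minus strand: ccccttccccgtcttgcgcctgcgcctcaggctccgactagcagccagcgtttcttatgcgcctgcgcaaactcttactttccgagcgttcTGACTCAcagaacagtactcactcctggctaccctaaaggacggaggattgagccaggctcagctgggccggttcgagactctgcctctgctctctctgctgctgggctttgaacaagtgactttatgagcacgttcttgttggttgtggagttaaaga
Mbl1, mannose-binding lectin A, chr14:41151206-41151455, plus strand: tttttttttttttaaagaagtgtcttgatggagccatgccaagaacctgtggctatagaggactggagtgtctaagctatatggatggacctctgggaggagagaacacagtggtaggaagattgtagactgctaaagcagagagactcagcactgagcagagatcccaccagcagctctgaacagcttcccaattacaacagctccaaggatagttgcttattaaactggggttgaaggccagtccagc
The AP-1 letters begin at position -173 from the start in Fgb, -180 in F2 and -159 in C8g, where the last belongs to the second of its RefSeq starts. Fgb also holds the HNF1 letters at -29. The 3 genes with AP-1 letters differed between the groups by -0.07 (Fgb), 0.14 (F2) and 0.13 (C8g), with limma adjusted p = 0.650, 0.482 and 0.420.

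The C1q genes, which encode the 3 chains of the molecule that opens the classical pathway, varied among the controls more than between the groups. C1qa was at 11.87, 11.21, 11.73, 12.08 and 12.01 in controls 11 to 15 and at 11.86, 12.01, 11.72, 11.53 and 11.91 in dn-cJun 16 to 20. Control 12 was the lowest array and control 14 the highest, and the groups overlapped. The difference was 0.03 (SE 0.15, limma adjusted p = 0.954).

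C1qb was at 12.39, 11.88, 12.29, 12.69 and 12.63 in the controls and at 12.06, 12.46, 12.21, 12.17 and 12.17 in the dn-cJun-labelled arrays. C1qc was at 12.08, 11.45, 11.97, 12.27 and 12.29 in the controls and at 11.84, 12.05, 11.86, 11.63 and 11.95 in the others. In both genes control 12 was again the lowest of 10 arrays and controls 14 and 15 were the highest, so the controls spanned the whole range of the other group. The differences were -0.16 (SE 0.13, limma adjusted p = 0.619) for C1qb and -0.15 (SE 0.14, limma adjusted p = 0.674) for C1qc. The further C1qb probe sets gave -0.24 and -0.21. Without controls 14 and 15 all 3 genes were on the higher side, at 0.20 for C1qa and 0.03 for both C1qb and C1qc.

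Other macrophage genes were high with C1q in controls 14 and 15 and low with it in control 12, but parted from it in several other arrays. Of 16 macrophage and Kupffer cell markers listed, 15 were tested, and 4 were higher and 11 lower (median -0.12), or 9 higher and 6 lower without controls 14 and 15 (median 0.02). Their summed level ran from 15.22 to 15.82 (controls) and from 15.26 to 15.45 (labelled dn-cJun). The mean of the markers, each centred over the 10 arrays, was 0.33 and 0.27 in controls 14 and 15, where C1q was at 0.34 and 0.30. It was -0.27 in control 12, where C1q was at -0.50. In control 11 and dn-cJun 17 the marker mean was -0.05 and -0.04, where C1q was at 0.11 and 0.16. In dn-cJun 18 and 19 it was -0.26 and -0.07, where C1q was at -0.08 and -0.23. Lyz2, lysozyme, and Cd5l, a macrophage protein of the plasma, were the 2 markers past the threshold, at -0.70 (SE 0.13, limma adjusted p = 0.0294) and -0.57 (SE 0.11, limma adjusted p = 0.0323). Without controls 14 and 15, Lyz2 was at -0.65 (limma adjusted p = 0.0367) and Cd5l at -0.49, where it no longer passed (limma adjusted p = 0.105). Cd68, a lysosomal protein of macrophages, was at -0.27 (SE 0.12, limma adjusted p = 0.310). The part of macrophage number in the C1q values was not tested.

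The C1q genes were then set against the hepatocyte-made members. The median difference was -0.15 over the 3 C1q genes and 0.01 over the 30 hepatocyte-made members, beside 0.0015 over all genes tested. With each gene centred, the C1q mean minus the hepatocyte-made mean was 0.31, -0.58, -0.06, 0.32 and 0.28 in controls 11 to 15 and -0.08, 0.21, -0.04, -0.27 and -0.08 in dn-cJun 16 to 20. The range of the controls enclosed that of the other group. Without controls 14 and 15 the medians were 0.03 for C1q and 0.04 for the hepatocyte-made members.

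**Figure D2:**
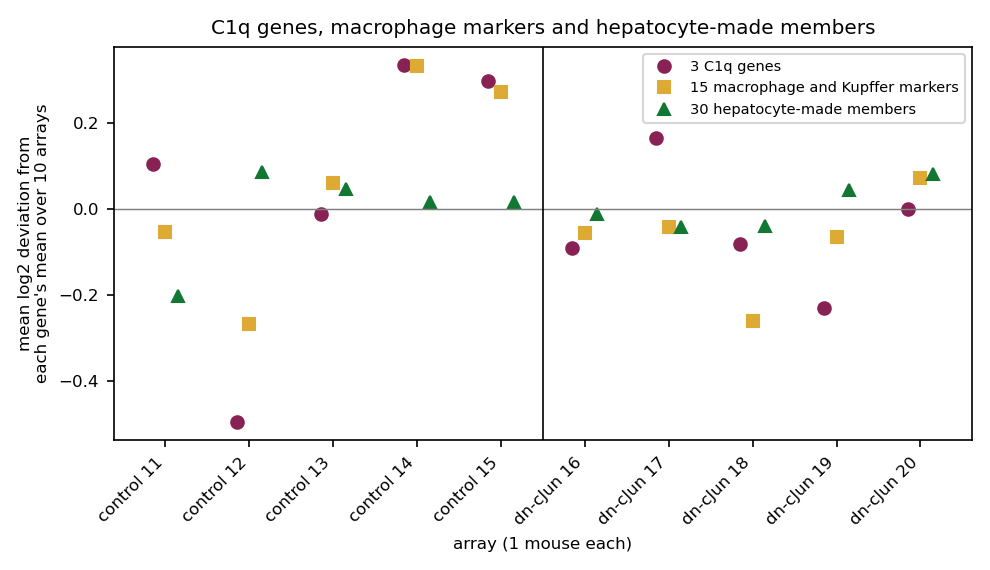
Mean log2 deviation of the 3 C1q genes, 15 macrophage and Kupffer cell markers and 30 hepatocyte-made members from each gene's mean over 10 arrays (vertical axis), by array, with controls left of the line. C1q and the macrophage markers are high together in controls 14 and 15 and low together in control 12, while the hepatocyte-made members are lowest in control 11 at -0.20.

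Among the lectin pathway members, each taken by its brightest probe set, the difference of Mbl1 was the largest. Mbl1 and Mbl2 encode the mannose-binding lectins A and C, which bind sugars on microbes, and Masp1 and Masp2 encode the proteases they activate. Mbl1 was at 12.38, 12.60, 12.64, 12.66 and 12.39 in the controls and at 12.13, 12.07, 12.31, 12.26 and 12.13 in the dn-cJun-labelled arrays. Every array of the second group was below every control. The means were 12.54 ± 0.14 and 12.18 ± 0.10 (SD, n = 5 each). The difference was -0.35 (SE 0.08, limma adjusted p = 0.0552), a ratio of 0.783, and it missed the threshold.

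The Mbl1 difference was -0.39 to -0.32 with 1 array left out (limma adjusted p = 0.0510 to 0.131) and -0.36 without controls 14 and 15 (limma adjusted p = 0.0955), and controls 14 and 15 differed from the other 3 controls by -0.01. It passed with a filter at the 60th percentile (limma adjusted p = 0.0491), with array weights (limma adjusted p = 0.0412) and with the values as deposited, at -0.52 (limma adjusted p = 0.00574), where the median of all genes shifted by -0.19. With equal array medians it was -0.36 (limma adjusted p = 0.160).

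Mbl2 was at 15.11, 15.02, 14.99, 15.07 and 15.11 in the controls and at 15.04, 14.93, 14.92, 15.17 and 15.11 in the dn-cJun-labelled arrays. The groups overlapped throughout, with a difference of -0.03 (SE 0.06, 95% interval -0.16 to 0.10, limma adjusted p = 0.877). Masp2 was at 12.64, 13.12, 12.89, 12.46 and 12.41 in the controls and at 12.69, 12.88, 12.94, 12.76 and 12.76 in the others. Controls 14 and 15 were the 2 lowest arrays, and the difference was 0.10 (SE 0.12, limma adjusted p = 0.750), or -0.08 without them. A further Masp2 probe set gave 0.38 (SE 0.12). Masp1 differed by -0.03 (SE 0.11, limma adjusted p = 0.929). Its 4 further probe sets gave 0.60 (SE 0.21), 0.04, 0.13 and 0.04, so the probe sets of Masp1 disagreed.

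The genes of the steps between recognition and the membrane pore were without a member past the threshold. C2, the protease of the classical and lectin pathway convertase, was at 12.04, 12.18, 12.10, 11.93 and 12.02 in the controls and at 11.71, 11.83, 11.68, 11.82 and 11.99 in the dn-cJun-labelled arrays. Only dn-cJun 20 lay within the range of the controls. The difference was -0.25 (SE 0.08, limma adjusted p = 0.150), and -0.30 (limma adjusted p = 0.159) without controls 14 and 15, where the groups no longer overlapped. The other C2 probe sets gave -0.04 and -0.10. C2 passed with the values as deposited alone of the settings run, at -0.43 (limma adjusted p = 0.0279).

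Cfb, factor B of the alternative pathway, was at 13.38, 13.69, 13.49, 13.84 and 13.82 in the controls and at 13.54, 13.71, 13.65, 13.76 and 13.65 in the dn-cJun-labelled arrays. Controls 14 and 15 were the 2 highest arrays and control 11 the lowest, and the difference was 0.02 (SE 0.09, limma adjusted p = 0.942). The inhibitors of these steps had small positive differences. C4bp, the C4b-binding protein, differed by 0.14 (SE 0.06, limma adjusted p = 0.318), and Cfi, the protease that cleaves C3b and C4b, by 0.06 (SE 0.06, limma adjusted p = 0.705). Neither difference passed, and both groups overlapped in each gene.

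No member of the terminal pathway passed the threshold, and the SD of each was larger in the controls, by least in C8b (0.40 and 0.31). C9, which polymerises to form the pore, was at 14.25, 14.54, 14.21, 13.81 and 13.47 in the controls and at 13.92, 13.99, 14.06, 14.27 and 14.06 in the dn-cJun-labelled arrays. Controls 14 and 15 were the 2 lowest of all 10 arrays and control 12 the highest. The difference was 0.01 over all arrays (SE 0.16, limma adjusted p = 0.992) and -0.27 (SE 0.10, limma adjusted p = 0.237) without that pair.

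C8b, the beta chain of C8, was at 12.14, 12.90, 12.93, 12.23 and 12.22 in the controls and at 12.65, 12.47, 12.38, 13.15 and 12.85 in the others. Controls 11, 14 and 15 were the 3 lowest arrays, and the difference of 0.22 (SE 0.18, limma adjusted p = 0.628) was 0.04 without controls 14 and 15. C8g, the gamma chain, differed by 0.13 (SE 0.07, limma adjusted p = 0.420), and Hc, which encodes C5, by -0.01 (SE 0.10, limma adjusted p = 0.985). Hc was lowest in control 11 at 13.50 and highest in control 12 at 14.11.

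C6, the terminal component between C5 and C8, is not a member and was chosen after its values were seen, because its direction turned on controls 14 and 15. Its level was 12.89, 13.17 and 12.84 in controls 11 to 13, whereas controls 14 and 15 had 9.91 and 9.60. The range over dn-cJun 16 to 20 ran from 11.94 to 12.51. The arrays labelled dn-cJun thus lay below controls 11 to 13 and above controls 14 and 15. The difference was 0.48 (SE 0.62, limma adjusted p = 0.779) over all arrays, and -0.81 (SE 0.13, limma adjusted p = 0.0288) without the pair. A term for the pair gave -0.81 as well (limma adjusted p = 0.0170). C8a, the alpha chain of C8, gave 0.40 (SE 0.16, limma adjusted p = 0.256), or 0.27 without the pair.

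**Figure D3:**
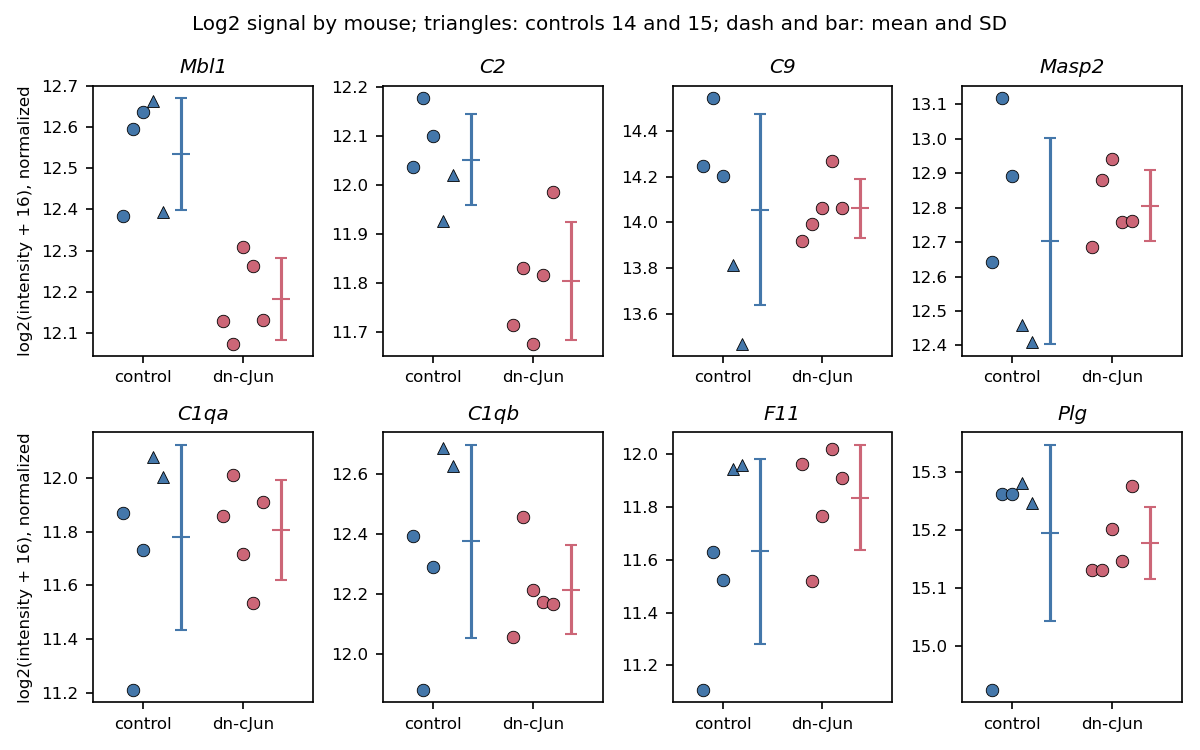
Normalized log2(intensity + 16) of 8 members by mouse (vertical axis, cut to the range of each gene), with controls in blue, arrays labelled dn-cJun in red, triangles for controls 14 and 15, and a dash and bar for the mean and SD of each group (n = 5). Mbl1 is the panel in which the groups do not overlap, C9 and Masp2 are low and C1qa and C1qb high in the triangles, and F11 and Plg are lowest in control 11.

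Of the 10 clotting factors and contact system genes, 7 were on the higher side with a median of 0.08, and none passed. In the values as deposited 5 were on the higher side with a median of -0.02, beside -0.19 over all genes. F5, the cofactor of the prothrombin-cleaving complex, was at 12.44, 13.04, 12.87, 12.88 and 13.01 in the controls and at 13.02, 12.98, 13.20, 13.14 and 13.33 in the dn-cJun-labelled arrays. Control 11 was the lowest by a wide gap, and the groups overlapped in control 12 and control 15. The difference was 0.28 (SE 0.11, limma adjusted p = 0.241), or 0.18 without control 11. The second F5 probe set gave 0.01 (SE 0.10).

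F11, the factor XI protease, was at 11.11, 11.63, 11.52, 11.94 and 11.96 in the controls and at 11.96, 11.52, 11.77, 12.02 and 11.91 in the others. Control 11 was again lowest, and controls 14 and 15 were at the level of the high arrays of the other group. The difference of 0.20 (SE 0.15, limma adjusted p = 0.574) became 0.07 without control 11 and 0.42 (limma adjusted p = 0.208) without controls 14 and 15.

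F2, the precursor of thrombin, was at 14.64 in control 11, while the other controls lay between 15.03 and 15.11 and the dn-cJun-labelled arrays between 15.03 and 15.20. Its difference was 0.14 (SE 0.08, limma adjusted p = 0.482), or 0.05 without control 11. F10, the factor X protease, had a difference of 0.15 (SE 0.09, limma adjusted p = 0.472), and its further probe sets gave 0.31 and 0.23. F7, which starts the extrinsic pathway, was at -0.05 and F9, lost in haemophilia B, at 0.08. F12 and Klkb1, which encode factor XII and plasma kallikrein of the contact system, were at -0.13 and 0.07, Kng1, the kininogen of that system, at 0.01, and F13b, a subunit of the factor that crosslinks fibrin, at -0.13. For these 6 genes the limma adjusted p was 0.396 to 0.947.

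The fibrinogen genes were all on the lower side after quantile normalization and all on the higher side with equal array medians. Fga was at 15.58, 15.35, 15.48, 15.65 and 15.63 in the controls and at 15.53, 15.34, 15.52, 15.20 and 15.20 in the dn-cJun-labelled arrays. The last 2 mice were the lowest arrays, and the other 3 lay within or at the edge of the control range. The difference was -0.18 (SE 0.08, limma adjusted p = 0.320), -0.11 without controls 14 and 15, and 0.06 with equal array medians.

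Fgb ranged from 15.43 to 15.74 (controls) and from 15.47 to 15.61 (labelled dn-cJun), with a difference of -0.07 (SE 0.06, limma adjusted p = 0.650). Fgg was at 15.30 to 15.54 and 15.28 to 15.45, with a difference of -0.06 (SE 0.06, limma adjusted p = 0.679). With equal array medians both were at 0.20. Controls 14 and 15 were the 2 highest of the 10 arrays in each of the 3 fibrinogen genes.

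The inhibitors of clotting and the genes of fibrinolysis had 2 of 5 members on the higher side, 4 with equal array medians, and none past the threshold. Serpinf2, which encodes the plasmin inhibitor alpha 2-antiplasmin, was at 13.28, 13.66, 13.70, 13.90 and 13.99 in the controls and at 13.99, 13.78, 13.86 and 13.89 in dn-cJun 16 to 19, with dn-cJun 20 the highest of all arrays. All arrays of the second group lay above controls 11 to 13, and controls 14 and 15 lay among them. The difference was 0.20 (SE 0.11, limma adjusted p = 0.429) over all arrays and 0.36 (SE 0.10, limma adjusted p = 0.137) without that pair.

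Plg, the precursor of plasmin, was at 14.92 in control 11 and at 15.25 to 15.28 in the other controls, beside 15.13 to 15.28 in the dn-cJun-labelled arrays, a difference of -0.02 (SE 0.07, limma adjusted p = 0.931). Proc, the anticoagulant protein C, was at 13.29 in control 11, while the other controls lay between 13.75 and 13.84 and the other group between 13.45 and 13.86, a difference of -0.08 (SE 0.11, limma adjusted p = 0.789). Without control 11 these were -0.09 for Plg and -0.18 for Proc (limma adjusted p = 0.447 and 0.358). Serpinc1, antithrombin, had the narrowest interval of the members after quantile normalization, -0.07 to 0.12 around 0.03 (limma adjusted p = 0.827). The Serpinc1 difference depended on the scaling. With equal array medians it was 0.26 (SE 0.12, limma adjusted p = 0.373), outside that interval, and it did not pass. Vtn, vitronectin, which binds terminal complement complexes and a plasminogen activator inhibitor, was at -0.04 (limma adjusted p = 0.785), and its second probe set gave 0.14.

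Across roles, the members varied more among the controls than among the arrays labelled dn-cJun. The SD was larger in the controls for 26 of 33 members (78.8%), with medians of 0.19 and 0.12, beside 53.4% of all genes and medians of 0.22 and 0.20. After quantile normalization, control 11 was the lowest of the 5 controls in 23 of the 30 hepatocyte-made members, beside 25.8% of all genes. It was the lowest of all 10 arrays in 19, beside 16.3% of all genes. Control 11 also had the highest median deposited intensity, 127, beside 85.3 to 104 elsewhere. The centred mean of the hepatocyte-made members in control 11 was -0.20 after quantile normalization and -0.46 with equal array medians. In the values as deposited it was -0.09, and dn-cJun 17 was lower at -0.11. The part of extraction or scaling in the values of control 11 was not tested.

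Controls 14 and 15 differed from the other controls in both directions. Both lay above the other 3 controls in 13 members, which were the 3 C1q genes, the 3 fibrinogen genes, Cfb, Cfi, F2, F11, F13b, Serpinc1 and Serpinf2. Both lay below them in 4, which were C2, C4bp, C9 and Masp2. Over all genes, 16.8% were above in this sense and 16.1% below. Acute phase genes, of which 10 were tested, had a centred mean of 0.48 and 0.40 in these arrays, where the other controls lay between -0.09 and -0.04 and the second group between -0.27 and -0.03. Without the pair 21 of the 33 members were on the higher side, beside 51.2% of all genes, and none passed the threshold, beside 0.408%.

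**Figure D4:**
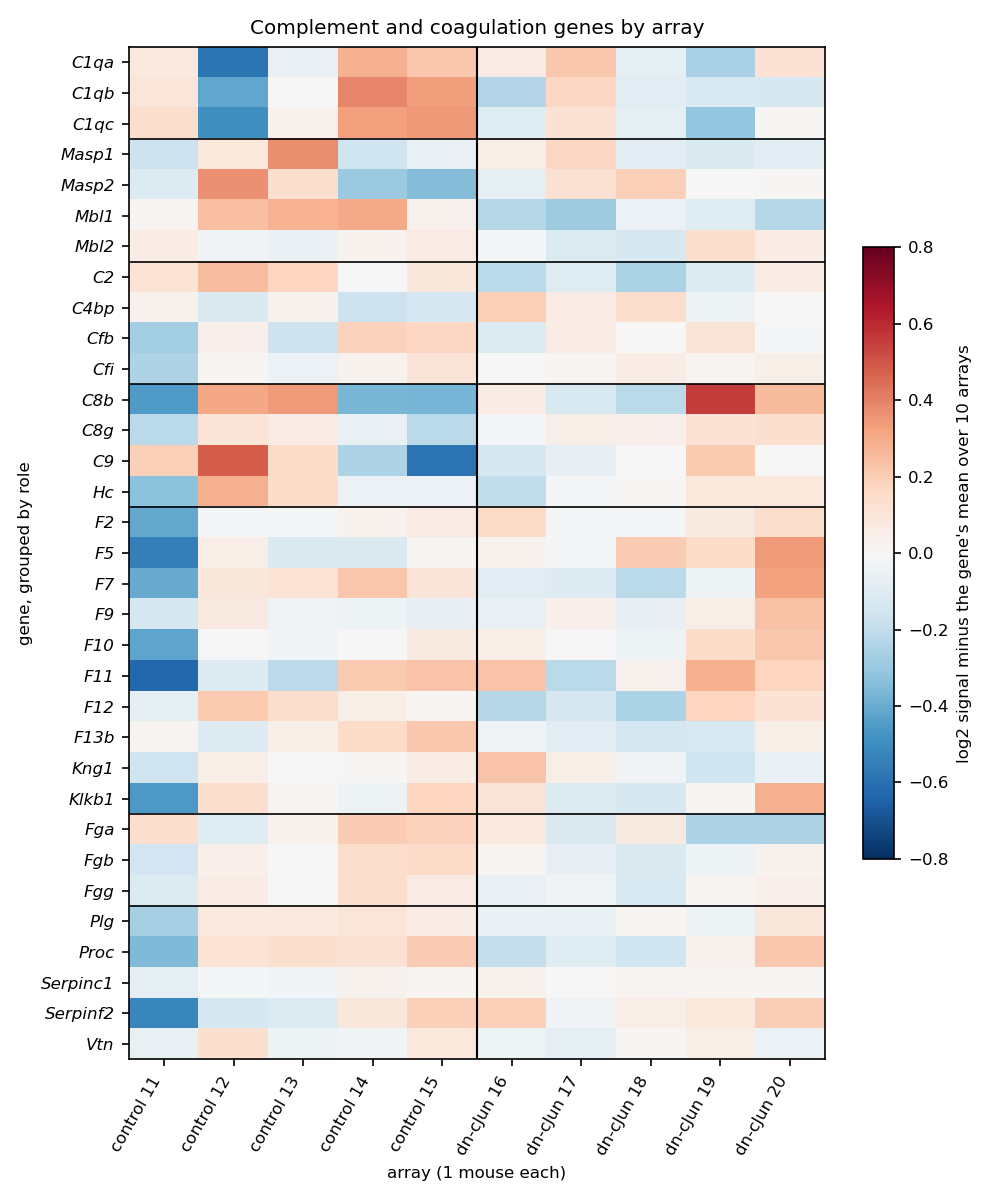
Log2 signal of each of the 33 members minus its mean over 10 arrays, as colour from blue (low) to red (high), by array (columns, controls left of the line) and role (rows, in the same order as the plot of differences). Control 11 is low in most clotting factors, though not in F13b, and controls 14 and 15 are high in C1q and fibrinogen and low in C9, C8b and Masp2.

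The scaling changed the size of the difference of the hepatocyte-made members as a group. A setting named factor per array undone divided each array by its own mean, with 2% trimmed at each end. The median difference of the hepatocyte-made members minus that of all genes was 0.01 after quantile normalization. It was 0.20 with equal array medians or the values as deposited, and 0.21 with the factor per array undone. For C1q the same quantity was -0.15, -0.13, -0.13 and -0.12. Equal array medians shift all genes of an array by the same amount, so this quantity equals that of the deposited values by construction. The factor per array undone also rescales each array as a whole, so these scalings are not separate checks. The brightest probe set of each member lay at percentiles 87.4 to 99.9 of the signal. Without subtracting the median of all genes, the 5% brightest genes had a median of 0.02 after quantile normalization and 0.11 with equal array medians. The median of all genes was 0.0015 and -0.03 in these settings. Also without that subtraction, the hepatocyte-made median with equal array medians was 0.17 over all arrays and 0.05 with control 11 left out. No member passed with equal array medians or with the factor undone.

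**Figure D5:**
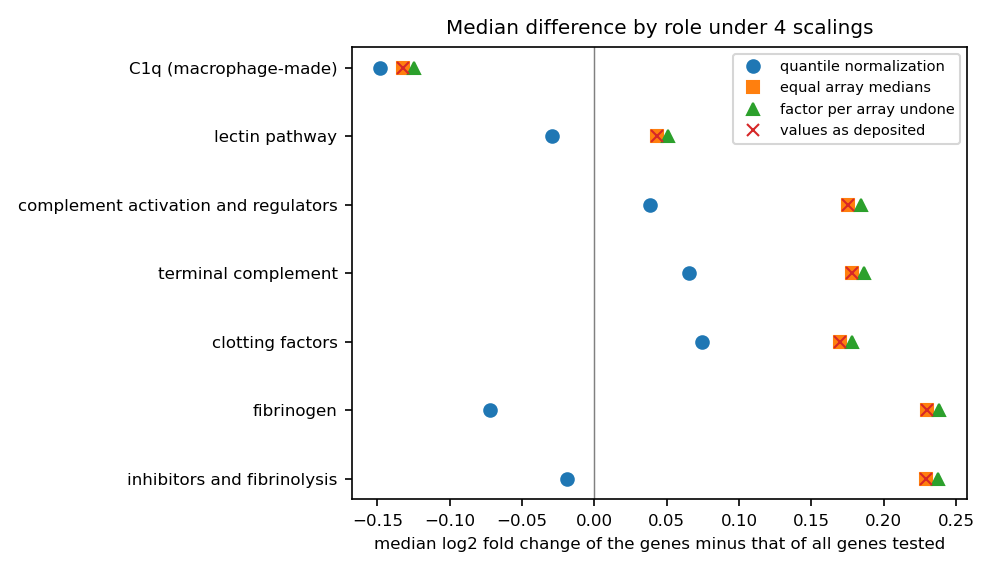
Median log2 fold change of the members of each role minus the median of all genes tested (horizontal axis), under 4 scalings of the arrays. The C1q genes stay between -0.15 and -0.12, while fibrinogen moves from -0.07 after quantile normalization to 0.23 with equal array medians. Equal array medians and the values as deposited coincide by construction, and the factor per array undone also rescales each array as a whole.

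Other genes of both cascades were taken from a list of 76, of which 54 could be tested. Of these, 32 had a positive and 22 a negative difference (median 0.04). In the values as deposited these counts were 16 and 38 (median -0.12), beside a median of -0.19 over all genes. None passed the threshold in limma, and 7 had an unadjusted p under 0.05, where 14.9% of all genes did. The groups did not overlap in 3 (Cfp, Serpind1 and Vkorc1), beside 4.22% of all genes. Cfp, properdin, which stabilises the alternative pathway convertase and comes from myeloid cells, was at 10.53, 10.58, 10.68, 11.05 and 10.89 in the controls and at 10.25, 10.38, 9.96, 10.02 and 10.38 in the dn-cJun-labelled arrays. Every array of the second group was below every control. The difference was -0.55 (SE 0.12, limma adjusted p = 0.0552), and -0.40 (limma adjusted p = 0.172) without controls 14 and 15. A second Cfp probe set gave -0.60 (SE 0.42).

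Lman1, a cargo receptor for factors V and VIII, was at 0.33 (SE 0.09, limma adjusted p = 0.113), but its 4 further probe sets gave -0.03, 0.05, 0.09 and -0.14. Serpind1, heparin cofactor II, at 0.17 (SE 0.06, limma adjusted p = 0.194) and Vkorc1, the vitamin K reductase needed for several clotting factors, at 0.14 (SE 0.05, limma adjusted p = 0.234) had groups that did not overlap, though neither passed. Hgfac, a protease that activates hepatocyte growth factor, was at 0.32 (SE 0.12, limma adjusted p = 0.246). Without control 12, Cfp (-0.59), C8a (0.55) and Lman1 (0.39) passed, at limma adjusted p = 0.0419, 0.0445 and 0.0468.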

How the data were processed

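Liver RNA of 10 mice was measured on 10 arrays, 1 per mouse and 5 per group. The authors deposited linear intensity per probe set, with a further factor per array in the values. The software behind it: not given in the sources used here. Intensity was taken as log2(intensity + 16). Array medians spanned 0.50, so quantile normalization was applied (limma 3.58.1, R 4.3.3). Of 45101 probe sets, 64 controls were left out, 34945 had 1 symbol in the platform annotation, 932 several, and 9160 are unnamed here. Each gene was its brightest probe set, above the 40th percentile. Groups were compared with limma (lmFit, eBayes with trend), two-sided, with Benjamini-Hochberg adjustment; no covariate was used. The number of arrays limits the precision. Tested on simulated data (5 against 5 arrays, 12736 genes), the fit recovered 0% of genes changed by a log2 fold of 0.25, 33.5% at 0.5 and 76.6% at 1. The changed genes were drawn from all genes, whose median SE was 0.14, beside 0.09 for the members. These shares are therefore not those of the members. Members and lists were chosen with earlier results of these data known. All members are named, with other pathway genes past the threshold or else the 6 with the smallest p, and up to 3 markers per cell type list. Promoters are from RefSeq.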

Additional observations from a re-analysis of the deposited data

Results flagged for a closer look

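In 7 of 66 member and group combinations, 1 array lay farther from the rest than Dixon's 95% limit for 5 samples. Chance alone marks about 1 in 20 independent groups. The combinations share the same arrays and are not independent, so the count cannot be set against that rate. All 7 were control 11, the lowest of its group on the log2 scale. It was at 14.64 in F2, where the other controls were at 15.03 to 15.11, and at 12.44 in F5, where they were at 12.87 to 13.04. F7 was at 11.16 beside 11.66 to 11.79, F10 at 13.46 beside 13.86 to 13.95, and Plg at 14.92 beside 15.25 to 15.28. Proc was at 13.29 beside 13.75 to 13.84, and Kng1 at 14.86 beside 15.02 to 15.08. Without control 11 the group differences were 0.05 for F2, 0.18 for F5, -0.16 for F7, 0.06 for F10, -0.09 for Plg, -0.18 for Proc and -0.02 for Kng1, and none passed.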

How the results depend on the processing

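No paired analysis was possible because the replicate numbers of the groups do not repeat. The count of members past the threshold was 0 in the main setting and 0 in each of the 10 fits with 1 array left out. It was 2 (Mbl1 and C2) with the values as deposited, and 1 (Mbl1) with a filter at the 60th percentile, with array weights or at an adjusted p of 0.1. The count of other pathway genes, 0 in the main setting, was 2 (Cfp and Colec10) with the values as deposited, 2 (C6 and Gas6) with a term for controls 14 and 15, 1 (C6) without them, and 1 (Cfp) with the 60th percentile filter, robust eBayes, array weights or an adjusted p of 0.1. It was 0 to 3 with 1 array left out, highest without control 12. Over all genes the count was 99, with 490 as deposited (22 higher and 468 lower), 65 with equal array medians, 44 with the mean of probe sets, 150 with every probe set as the unit, 9 in eBayes without trend, 8 and 250 at adjusted p of 0.01 and 0.1, 52 without controls 14 and 15 and 156 with a term for them. It was 13 (without dn-cJun 17) to 199 (without control 12) with 1 array left out. The median of the hepatocyte-made members, 0.01, was 0.17 with equal array medians and 0.20 with the factor per array undone. Chosen after seeing the data, equal array medians without controls 14 and 15 gave 0.23 for that median, 34 genes in all and 1 other pathway gene (C6). Equal array medians without control 11 gave 0.05, 49 genes in all and 1 other pathway gene (Cfp). The median of the C1q members, -0.15, moved by less than the spread between replicates in the settings run, but its sign turned without controls 14 and 15 (0.03), and it was -0.29 without control 12. Among the members, none of which was called in the main setting, 11 of 33 changed sign in the deposited values, 7 with equal array medians and 8 without controls 14 and 15. The causes were not tested.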
